A study of Mus musculus with 8 samples.

Results

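Spp1 (ENSMUSG00000029304) encodes osteopontin, a secreted phosphoprotein, and lies on the plus strand of mouse chromosome 5 (chr5:104435118-104441050, GRCm38). Its transcript was followed in sorted CD8+ T cells from pancreatic tumours, as 1 of 32285 genes counted per cell. Cells were chosen where exactly 1 guide RNA was called, the number of unique molecular identifiers (UMIs, which count RNA molecules) and the mitochondrial share lay within limits, and the macrophage genes Lyz2 and C1qa and the epithelial genes Krt8 and Krt19 were all at 0. These rules left 22649 of 56359 cell barcodes. Spp1 was picked for description because it was already known from these data to vary between cell states, so its levels in states are given as values without a test.

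The T cells were OT-I CD8+ cells, whose receptor recognises an ovalbumin peptide, from donors with a constitutive Cas9 knock-in. They carried a pooled lentiviral CROP-seq library against metabolic genes with CD90.1 as reporter, and were transferred into Cas9 mice with orthotopic tumours of KPC_OVA, a pancreatic cancer line that makes ovalbumin. Recipients received anti-PD-1, which blocks an inhibitory receptor of T cells, or control IgG, and CD90.1+ cells were sorted from the primary tumour 7 days after transfer. The 3 anti-PD-1 libraries gave 2484, 2533 and 6268 chosen cells in replicates 1, 2 and 3, and the single IgG library gave 11364. Cells with nontargeting guides share the Cas9 allele, the vector, the sort and the treatment with all others. Nothing in the labels ties a library to single animals. P-values for treatment thus measure the spread between libraries. Those of the fits with the library as a term measure the spread left within libraries after the groups are fitted.

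Osteopontin binds integrins through an Arg-Gly-Asp motif and also binds CD44, and it acts as an adhesion protein and as a cytokine-like signal. Macrophages, bone cells and many carcinomas secrete it in quantity. In lymphocytes it was described early as a transcript of T cell activation, and its expression there has been linked to the factor T-bet.

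The 250 bases before the RefSeq start site of Spp1 (chr5:104434861-104435110, plus strand, GRCm38.p6) are shown because they hold a match to the core letters of RUNX factors, which are active in CD8+ T cells. The match, ACCACA searched on both strands, is in capitals and begins at position -128 from the start site.

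Spp1 promoter: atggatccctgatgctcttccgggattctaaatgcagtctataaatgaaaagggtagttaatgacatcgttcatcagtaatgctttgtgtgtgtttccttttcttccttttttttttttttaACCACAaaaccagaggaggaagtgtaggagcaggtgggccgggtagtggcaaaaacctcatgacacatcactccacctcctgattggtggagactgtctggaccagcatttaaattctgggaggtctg

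The letters ACCACA occur on either strand in 16.9% of 27025 promoters, each read over 300 bases around a start site. The T-box letters AGGTGTGA (1.27% of promoters), the AP-1 letters TGANTCA (7.93%) and the hypoxia response letters ACGTG (19.7%) had no match around the start site of Spp1. Such a match describes letters and not binding.

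Total gene UMIs per library lay between 142945121 and 155974184. The chosen cells had a median of 16744.5, 16225 and 12022 UMIs for the 3 anti-PD-1 replicates and 6322.5 for IgG. Cd3e was detected in 97.2% to 99.9% of them and Cd8a in 97.1% to 99.0%. Any pair of libraries shared 3 to 16 of the chosen barcodes, and no doublet caller was run.

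Spp1 was present in every library, in a minority of cells. Summed over the chosen cells, it reached 83.5 CPM (UMIs per 1000000 gene UMIs of those cells) in anti-PD-1 replicate 1, 67.9 in replicate 2, 181 in replicate 3 and 142 in IgG. At least 1 Spp1 UMI was seen in 11.5% of cells of replicate 1 (exact Clopper-Pearson 95% interval 10.3% to 12.8%), 12.3% of replicate 2 (11.1% to 13.7%), 19.4% of replicate 3 (18.5% to 20.4%) and 13.0% of IgG (12.4% to 13.6%). These shares depend on depth, so each cell was also thinned at random to 3000 UMIs, which left out 0, 0, 34 and 607 shallower cells. The thinned shares were 4.91% (4.10% to 5.84%), 5.49% (4.63% to 6.45%), 9.80% (9.07% to 10.6%) and 8.93% (8.40% to 9.49%). Replicate 3 and IgG overlapped in their intervals, and both lay above replicates 1 and 2. Intervals cover counting error only.

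**Figure D1:**
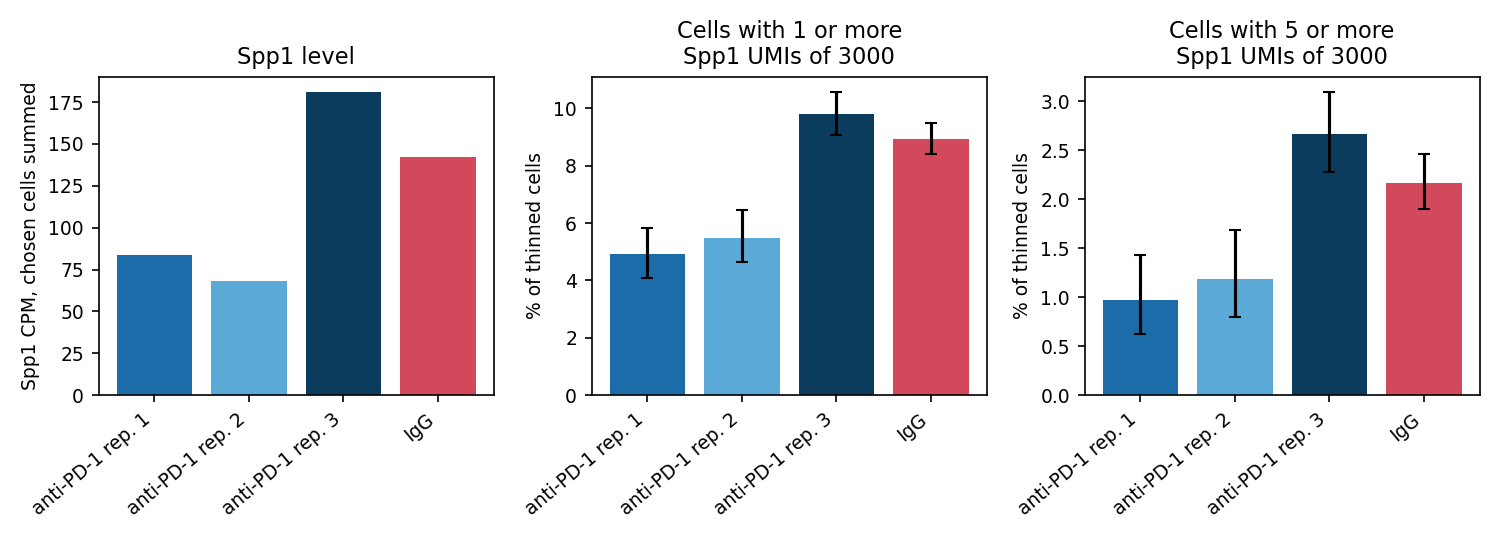
Spp1 CPM summed over the chosen cells (left) and the percentage of cells thinned to 3000 UMIs with 1 or more (middle) or 5 or more (right) Spp1 UMIs, per library. Error bars are exact 95% intervals, and anti-PD-1 replicate 3 and IgG stand above anti-PD-1 replicates 1 and 2 in each panel.

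The Spp1 molecules were concentrated in few cells. The 1% of cells with most Spp1 held 67.5%, 58.2%, 55.9% and 58.2% of its UMIs in replicates 1, 2, 3 and IgG. The highest cell of each library held 925, 286, 650 and 527 Spp1 UMIs, which was 3.26%, 1.13%, 2.86% and 4.55% of all UMIs of that cell. At the other end, 41.6% to 45.6% of the cells with any Spp1 had exactly 1 UMI. Cells with 5 or more Spp1 UMIs of 3000 are called Spp1-rich here. They numbered 24 in replicate 1 (0.966% of thinned cells), 30 in replicate 2 (1.18%), 166 in replicate 3 (2.66%) and 233 in IgG (2.17%). The part of free RNA in cells with a single UMI was not tested.

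The strongest producers carried T cell transcripts, with 1 exception. Among the 10 highest cells of each library, 40 in all, UMIs of the T cell list (Cd3d, Cd3e, Cd3g, Cd8a, Cd8b1, Trac, Trbc1, Trbc2, Cd2) ran from 8 to 513 with a median of 169.5. The cell with 8 was the highest of replicate 2. It held 438 UMIs of the fibroblast list, which includes the collagen genes Col1a1 and Col3a1, whereas the other 39 cells held none. Macrophage list UMIs were at 0 in 33 of the 40 cells and at most 4, and tumour epithelial list UMIs were at 0 in 31 and at most 2, where the choice of cells had already set 2 macrophage and 2 epithelial genes to 0. The highest cell of replicate 1, with 925 Spp1 UMIs, held 406 T cell, 440 cytotoxic and 4 macrophage list UMIs. Without the fibroblast-marked cell, Spp1 in replicate 2 was at 61.8 CPM.

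Barcodes with markers of other cell types were rare in the files, and those with keratins were rich in Spp1. Over all barcodes, 15, 12, 13 and 14 had 5 or more keratin UMIs in replicates 1, 2, 3 and IgG, and their Spp1 was at 1965, 2577, 1752 and 3962 CPM. Barcodes with 5 or more C1q UMIs numbered 5, 1, 16 and 10, with Spp1 at 52.4, 0, 2374 and 10.4 CPM, so that they exceeded the chosen cells in replicate 3 only. Among the chosen cells, the macrophage list of 13 genes was at 17.1, 22.8, 10.7 and 14.7 CPM in Spp1-rich cells and at 8.76, 8.95, 11.6 and 10.3 CPM in cells without thinned Spp1. The tumour epithelial list was at 2.14, 3.80, 9.83 and 9.61 CPM in Spp1-rich cells and at 11.2, 11.0, 11.1 and 10.5 CPM in the others. At equal depth it was at 0, 11.1, 16.1 and 5.72 CPM in Spp1-rich cells and at 13.1, 11.6, 11.7 and 11.9 CPM without Spp1, so that replicate 3 was the library where it was higher beside Spp1. The dendritic cell list was at 27.8, 22.2, 44.2 and 60.1 CPM in Spp1-rich cells at equal depth and at 12.7, 15.6, 27.7 and 34.1 CPM without Spp1, higher in all 4 libraries. Before thinning it was at 34.2, 11.4, 42.7 and 63.9 CPM against 14.4, 18.1, 29.9 and 36.0 CPM, lower in replicate 2, and its part in the results was not tested. The T cell list was at 9348 to 11404 CPM in Spp1-rich cells and at 9223 to 10020 CPM without Spp1.

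Spp1 varied over 12 marker-defined states. For each gene list, cells whose share of UMIs in the list exceeded the upper quartile of their library were set against all other chosen cells of that library. Spp1 was highest relative to the others in cells high for cytotoxic genes (Gzma, Gzmb, Gzmk, Prf1), for the granzyme C cluster (Gzmc, Gzmd, Gzme, Gzmf, Gzmg), a run of neighbouring serine protease genes, and for receptors shared with natural killer (NK) cells. The mean log2 ratios were 1.97 ± 1.08, 1.93 ± 1.05 and 1.86 ± 0.71 (SD, n = 4 libraries). These neighbours in the order differed by less than their spread. For thinned ratios and shares, here and below, each list was scored again on the thinned counts, so that the high cells were not the same. With cells thinned to 3000 UMIs the ratios were 2.01, 2.96 and 1.76, which put the granzyme C cluster first.

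In cytotoxic-high cells Spp1 was at 178, 88.6, 528 and 343 CPM in replicates 1, 2, 3 and IgG, against 46.7, 60.1, 58.9 and 73.7 CPM in the others. For the granzyme C cluster the upper quartile was 0, so that the 206, 261, 1122 and 1185 cells with any of its UMIs counted as high. These cells were deeper, with a median of 22936.5 against 16405.5 UMIs in replicate 1 and 7240 against 6206 in IgG. There Spp1 was at 163, 116, 526 and 619 CPM, against 73.9, 61.1, 84.7 and 76.9 CPM. In CPM the libraries thus lay close together in cells without these granzymes and apart in cells with them. Single cells weigh on these sums. In replicate 1 the cells with 925 and 262 Spp1 UMIs had 0 granzyme C cluster UMIs. After thinning and scoring again, 68, 83, 488 and 730 cells were granzyme C-positive, and 30.9%, 16.9%, 32.8% and 27.9% of them had an Spp1 UMI. Among the others 4.18%, 5.10%, 7.85% and 7.55% had one, so that by share replicates 1 and 2 lay below replicate 3 and IgG there. In NK receptor-high cells Spp1 was at 241, 152, 393 and 244 CPM, against 34.4, 43.0, 121 and 114 CPM.

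Hypoxia genes followed with a log2 ratio of 1.34 ± 0.24, the smallest spread of the 12 lists. Spp1 was at 159, 106, 337 and 273 CPM in hypoxia-high cells and at 56.2, 53.3, 127 and 98.3 CPM in the others. The memory-like (0.76 ± 0.72) and exhausted (0.75 ± 0.56) lists came next and differed by less than their spread. Spp1 was higher in exhausted-high cells of all 4 libraries, with log2 ratios from 0.32 to 1.51, and higher in memory-like cells of 3 of them. The thinned shares did not all follow. An Spp1 UMI was present in 4.38%, 8.13%, 10.7% and 8.88% of exhausted-high cells against 5.09%, 4.71%, 9.49% and 8.95% of the others, which is lower in replicate 1 and IgG, and the thinned ratio was 0.32. It was present in 3.54%, 4.64%, 12.6% and 12.8% of memory-like cells against 5.11%, 5.61%, 9.27% and 8.31%, so that replicates 1 and 2 were lower and replicate 3 and IgG higher.

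The lowest ratio was that of the precursor list (Tcf7, Slamf6, Id3 and others), which marks less differentiated, self-renewing cells. It differed from the next list, S-phase histones, by less than its spread. Without replicate 1, G1/S (-0.96) and S-phase histones (-0.95) lay below it (-0.81), and at the 90th percentile the cytokine list did (-1.14 against -1.08). In precursor-high cells Spp1 was at 25.7, 51.4, 108 and 78.9 CPM, against 99.1, 72.3, 202 and 162 CPM in the others, a log2 ratio of -1.10 ± 0.61. After thinning and scoring again, 230, 215, 1205 and 899 cells were precursor-high, and 3.48%, 3.72%, 6.80% and 5.45% of them had an Spp1 UMI. The others stood at 5.06%, 5.65%, 10.5% and 9.25%. Lists of the cell cycle were low too, at -1.03 ± 0.50 for S-phase histones, -0.81 ± 0.75 for G1/S and -0.67 ± 0.67 for G2/M, the last with 0.31 in replicate 2. Cycling cells were deeper, with a median of 23949 against 15084 UMIs for G2/M in replicate 1. After thinning, the G2/M ratio was -0.50, but an Spp1 UMI was present in 5.76%, 5.95%, 10.5% and 9.14% of G2/M-high cells against 4.66%, 5.34%, 9.61% and 8.87% of the others, slightly more often in all 4 libraries. Spp1-rich cells made up 0.698%, 0.826%, 1.89% and 1.49% of G2/M-high cells and 1.05%, 1.30%, 2.87% and 2.39% of the others. The interferon (0.01 ± 0.79) and cytokine (-0.34 ± 0.45) lists had no common direction over the 4 libraries.

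**Figure D2:**
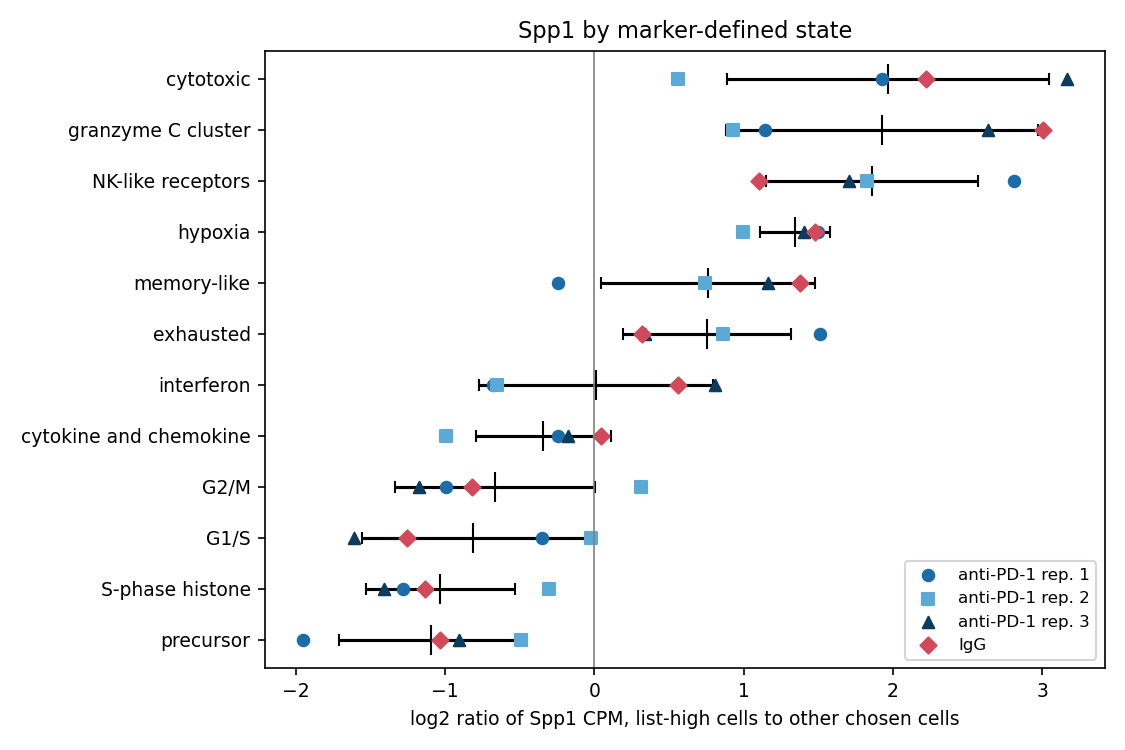
Log2 ratio of Spp1 CPM in cells high for a gene list to the other chosen cells of the same library, for 12 lists. Points are libraries and black bars the mean and SD over 4 libraries. The cytotoxic, granzyme C, NK receptor, hypoxia and exhausted lists lie above 0 and the precursor, S-phase histone and G1/S lists below 0 in every library.

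Spp1 was high where the granzyme C cluster met another of the leading lists. The 102, 98, 472 and 593 cells high for both cytotoxic genes and the granzyme C cluster had 304, 234, 1111 and 1006 CPM in replicates 1, 2, 3 and IgG. Cells high for the granzyme C cluster alone were at 24.3, 35.5, 105 and 225 CPM, and cells high for cytotoxic genes alone at 148, 55.8, 212 and 135 CPM. Cells high for neither were at 48.6, 62.9, 49.4 and 60.6 CPM, so that the granzyme C cluster alone went with less Spp1 than neither list in replicates 1 and 2 and with more in replicate 3 and IgG. Cells high for both the granzyme C cluster and hypoxia genes were at 324, 120, 897 and 1193 CPM, against 139, 104, 167 and 122 CPM for hypoxia alone. Cells high for the granzyme C cluster but not hypoxia were at 106, 114, 385 and 379 CPM, in replicate 2 close to the pair. Cells high for both the granzyme C cluster and NK receptors were at 376, 194, 1145 and 979 CPM. NK receptors alone went with 221, 146, 165 and 122 CPM, and the granzyme C cluster without them with 75.4, 92.3, 335 and 494 CPM. The order of these 3 pairs of lists differed between libraries, with the NK pair highest in replicates 1 and 3, the cytotoxic pair in replicate 2 and the hypoxia pair in IgG.

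Read from Spp1, the granzyme lists climbed with its thinned UMIs in replicates 1 and 3 and in IgG. In IgG the granzyme C cluster was at 118 CPM in cells with 0 Spp1 UMIs, 511 with 1, 1306 with 2 to 4 and 3353 with 5 or more. In replicate 3 it was at 109, 582, 1743 and 5550 CPM, and in replicate 1 at 15.2, 430, 1093 and 2472 CPM. Replicate 2 broke the order, at 79.5, 229, 103 and 5089 CPM, with 39 cells in the third group and 30 in the fourth. From the first to the fourth group the cytotoxic list went from 2636 to 11986 CPM in replicate 1, 2830 to 5500 in replicate 2, 4383 to 19239 in replicate 3 and 2677 to 10000 in IgG. In replicate 2 this list broke the order too, at 4981 CPM in the second and 3590 CPM in the third group. The precursor list went from 147 to 41.7 CPM, 140 to 100 CPM, 104 to 46.2 CPM and 141 to 71.5 CPM. Median depth before thinning was 6494 UMIs in the first and 6542 in the fourth group of IgG.

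**Figure D3:**
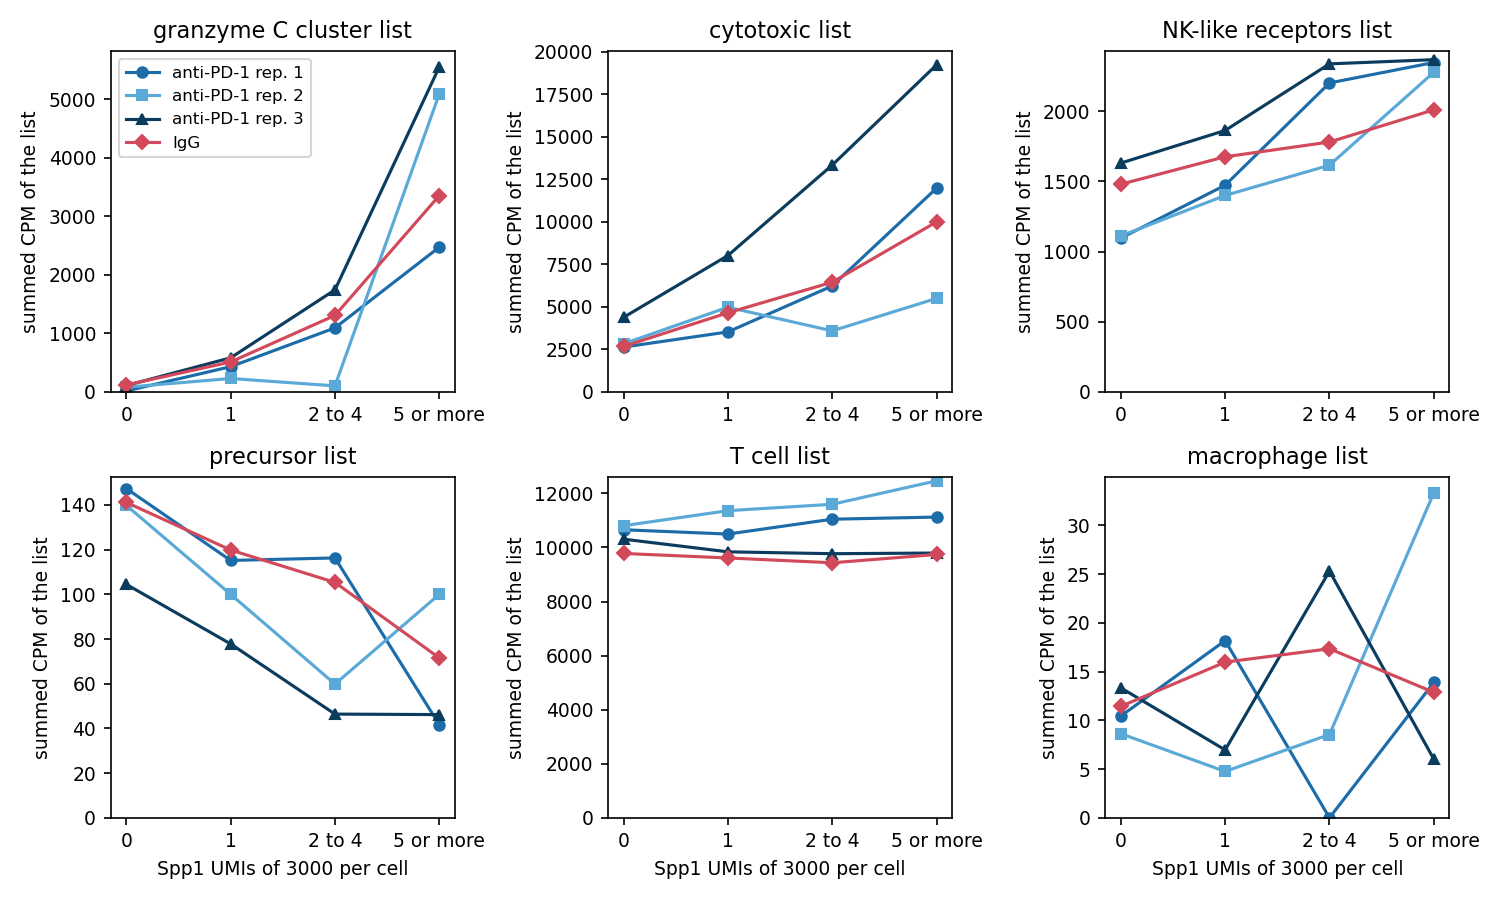
Summed CPM of 6 gene lists in cells with 0, 1, 2 to 4 and 5 or more Spp1 UMIs of 3000, with 1 line per library. The granzyme C and cytotoxic lists end highest in the fourth group of every library, the precursor list ends lower than it starts, the T cell list stays between 9435 and 12467 CPM, and the macrophage list stays at or below 33.3 CPM.

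Granzyme C was not a feature of every Spp1-rich cell. A UMI of the cluster was present in 9 of 24 Spp1-rich cells of replicate 1 (37.5%, exact 95% interval 18.8% to 59.4%), 7 of 30 of replicate 2 (23.3%, 9.93% to 42.3%), 87 of 166 of replicate 3 (52.4%, 44.5% to 60.2%) and 92 of 233 of IgG (39.5%, 33.2% to 46.1%). In cells without thinned Spp1 the shares were 7.62%, 9.86%, 15.5% and 8.89%. In replicate 2, 14 of the 30 Spp1-rich cells lay below the library median for cytotoxic genes, against 21 of 166 in replicate 3. The second highest cell of replicate 1, with 262 Spp1 UMIs, had 430 T cell but 5 cytotoxic and 0 granzyme C cluster UMIs. The second highest of replicate 2, with 194, had 183, 8 and 0. Strong producers rich and poor in granzymes were both present.

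To list the genes that go with Spp1, counts of the 122, 139, 611 and 961 cells with a thinned Spp1 UMI (Spp1-positive) were summed per library and set against the cells without, with Spp1 removed and the library as a term (edgeR quasi-likelihood test with Benjamini-Hochberg adjustment). Of 10006 genes, 667 were called at an adjusted p of 0.05 (6.67%), 403 higher (4.03%) and 264 lower (2.64%). Of these, 297 were higher and 209 lower in all 4 libraries. With Spp1-rich cells in place of Spp1-positive ones, 14 of the list genes called here, among them Havcr2, Lag3, Klrk1, Id3, Tcf7, Il2, Ifng, Nr4a3 and Itgb1, were no longer called, and Csf2 was not tested there. The cells were grouped by Spp1 itself, and Spp1 was picked with Gzmc known to share its cells, so the calls are no independent evidence for that link.

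The largest rises were in the granzyme C cluster, which activated and NK-like killers can express. Gzmd was at 233, 267, 331 and 182 CPM in Spp1-positive cells of replicates 1, 2, 3 and IgG and at 0.423, 10.2, 8.77 and 7.96 CPM in the others, a log2 fold change of 5.02 ± 0.10 (SE). Gzmf rose by 3.85 ± 0.08 on the log2 scale. Gzmc rose by 3.83 ± 0.06, from 6.35, 21.3, 57.0 and 62.3 CPM to 304, 343, 757 and 751 CPM. All 5 genes of the list were called higher, with a median log2 fold change of 4.83 beside 0.0042 over all genes tested. These genes are close copies of each other, so the split of reads between them is uncertain.

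Other cytotoxic genes rose less. Gzma, a granzyme of effector and NK cells, went from 749, 701, 1787 and 1121 CPM to 3095, 1441, 7621 and 3562 CPM, a log2 fold change of 1.78 ± 0.05. Gzmb rose by 0.91 and Prf1, the pore-forming perforin, by 0.77, both in all 4 libraries. Gzmk stood at -0.17 with an adjusted p of 0.159 (edgeR), so that 3 of the 4 cytotoxic genes were called.

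Receptors and adaptors of innate lymphocytes formed the next group. Fcer1g, a signalling chain of Fc receptors, was at 76.6, 36.0, 241 and 181 CPM with Spp1 and at 3.25, 4.18, 37.1 and 32.1 CPM without, a log2 fold change of 2.71 ± 0.08. Of the NK receptor list 5 of 6 tested genes were called higher and none lower, with a median of 0.64. Among them were Tyrobp, an adaptor of activating NK receptors (2.56 ± 0.28, higher in 3 of 4 libraries), and Klre1 (0.91). Klra5, a Ly49 receptor gene whose reads could be shared with its paralogs, rose by 1.78 ± 0.06. AA467197 (1.43), the adaptor Lat2 (1.04) and the chemokine receptor Ccr2 (0.98) rose as well.

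Ifitm1 and Ifitm2, membrane proteins that restrict virus entry, rose by 1.79 ± 0.05 and 1.81 ± 0.06. Ifitm1 was at 542, 411, 1138 and 959 CPM with Spp1 and at 144, 146, 380 and 247 CPM without. Of the interferon list, however, 1 of 8 tested genes was called higher, Isg20 (0.54), and none lower. The protease inhibitors Serpine2 (1.52) and Serpinb6a (1.08), Filip1 (1.26) and the transcript Gm36723 (1.06) rose too. Of the metal-binding metallothioneins, Mt1 (0.80) and Mt2 (0.96) rose and Mt3 stood at 0.21, not called.

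Hypoxia genes were called higher in 8 of 10 cases and lower in none, with a median of 0.51. Among them were Bnip3, a mitophagy receptor (0.72), Ero1l, an oxidase of the endoplasmic reticulum (0.59), the growth factor Vegfa (0.89) and the glucose transporter Slc2a1 (0.31). Of the exhausted list 4 of 8 were called higher, Cd244a (0.92), Entpd1 (0.59), Havcr2 (0.22) and Lag3 (0.21). Tox, a transcriptional regulator of exhaustion, fell by 0.79 ± 0.09 on the log2 scale. Pdcd1, which encodes PD-1, stood at -0.11 and was not called.

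Genes of less differentiated cells were lower beside Spp1. Klf2, a factor of quiescent and recirculating T cells, was at 41.0, 19.2, 13.1 and 12.2 CPM with Spp1 and at 68.7, 65.9, 33.3 and 20.6 CPM without, a log2 fold change of -1.04 ± 0.15. Of the precursor list 3 of 6 were called lower, Slamf6 (-0.85), Id3 (-1.37) and Tcf7 (-0.60), and none higher, with a median of -0.53. The memory-like list was divided, with Klf2 and the egress receptor S1pr1 (-1.07) lower and the cytokine receptor Il7r (0.82) and Ly6c2 (0.49) higher. Hmgn1 (-0.96), which binds nucleosomes, the chemokine receptor Cxcr3 (-0.78), Sult2b1 (-0.71), Gch1 (-0.69) and Smco4 (-0.64) fell in all 4 libraries.

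Cytokine genes were mostly lower beside Spp1. Xcl1, a chemokine that attracts dendritic cells, was at 1207, 951, 686 and 1515 CPM with Spp1 and at 2227, 2695, 1428 and 1942 CPM without, a log2 fold change of -0.86 ± 0.05. In all 5 of 7 were called lower (Xcl1, Il2, Ifng, Ccl3, Ccl4), and Csf2 was called higher (1.91 ± 0.37, in 3 of 4 libraries). Csf2 was low, at 0, 2.40, 2.19 and 11.1 CPM with Spp1 and 0.282, 0, 2.02 and 2.11 CPM without, and differed most in IgG. Of the cell cycle lists, 3 of 8 S-phase histones and 1 of 10 G1/S genes were called lower and 3 of 9 G2/M genes higher (Cenpf 0.35, Cenpe 0.40, Cdc20 0.32). When cells with 5 or more thinned Spp1 UMIs were taken instead, all 9 G2/M genes were below 0. Those 3 stood at -0.50, -0.17 and -0.27, not called, and Top2a (-0.55) and Ube2c (-0.48) were called lower. Of the lists of other cell types, the macrophage and tumour epithelial lists had 1 gene tested each and 0 called, and Igkc (-2.61) and Ighm (-0.46) of B and plasma cells were lower. H2-Ab1 of the dendritic cell list was higher (0.84, in 3 of 4 libraries).

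Of 17 transcription factors tested, 4 were called, with a median of 0.01 over the list. Bhlhe40 (0.39) and Id2 (0.33) were called higher and the early response genes Nr4a1 (-0.85) and Nr4a3 (-0.36) lower. Tbx21, which encodes T-bet, stood at 0.0074 ± 0.12, and Runx1, Runx2 and Runx3, whose core letters occur in the printed promoter, at 0.05, 0.02 and 0.01, none of them called.

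**Figure D4:**
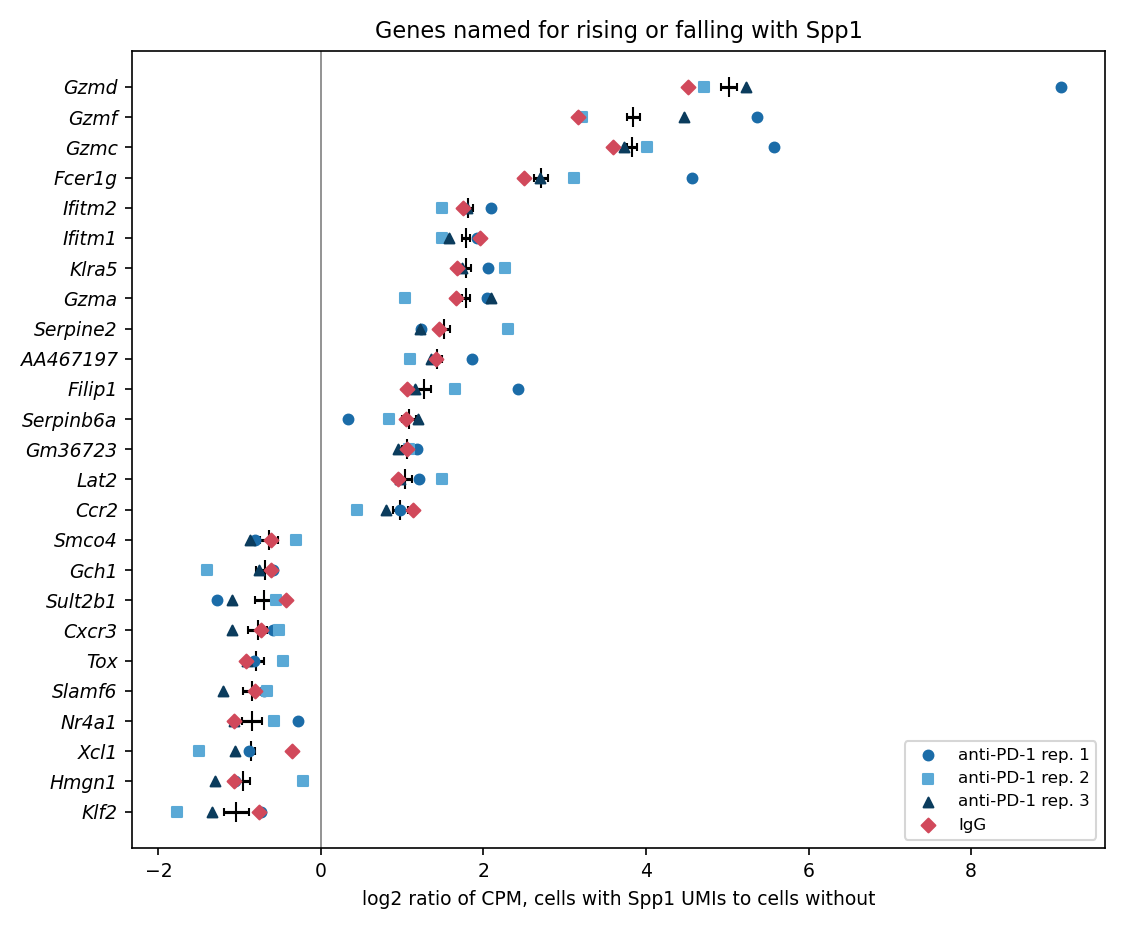
Log2 ratio of CPM in Spp1-positive to Spp1-negative cells for the 15 genes with the largest rise and the 10 with the largest fall. Points are libraries and black bars the fitted fold change with its SE. Gzmd, Gzmf and Gzmc lie farthest to the right, and each gene has its 4 libraries on the same side of 0, which its choice required.

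Receptors of osteopontin were present in the same cells. Cd44 was at 78.4, 68.5, 64.7 and 74.3 CPM in replicates 1, 2, 3 and IgG. The integrin chains Itgav, Itgb1 and Itga4 were at 57.4 to 112, 232 to 333 and 257 to 301 CPM, and Itgb3, the partner of Itgav, at 5.65 to 10.1 CPM. Itgb5, Itgb6, Itgb8, Itga5, Itga8 and Itga9 were below 1 CPM in every library. Of the 5 receptor genes tested against Spp1, Itgb3 (1.15 ± 0.18) and Itgav (0.42 ± 0.08) were called higher, Itga4 (-0.53 ± 0.06) and Itgb1 (-0.16 ± 0.05) lower, and Cd44 stood at -0.19, not called. None of the 7 genes for phosphorylation, cleavage and cross-linking of osteopontin passed the filter on low counts, and the highest of them, the protease gene Plau, was at 1.07 to 3.37 CPM. The 4 related genes Ibsp, Dmp1, Dspp and Mepe had 1 UMI in all, of Dmp1 in replicate 3.

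Rank correlations with Spp1 across single cells were low among the genes compared. Spearman correlations with Spp1 over thinned cells, averaged over the 4 libraries, ran from -0.0955 to 0.136 over 3070 genes with a UMI in at least 10% of cells of each library. The highest were Ifitm1 (0.136), Gzma (0.113), Nrgn (0.111), Serpine2 (0.108), Klre1 (0.101), Gzmb (0.0941), Plac8 (0.0922), Prf1 (0.0912), Capg (0.0876) and Mt1 (0.0819). The lowest were Ndufa4 (-0.0955), Nme2 (-0.0671), Hmgn1 (-0.0640), Tox (-0.0623) and Itga4 (-0.0606). Spp1 was at 0 in most thinned cells, and such ties keep the values low. The 10% limit also left out the granzyme C cluster, seen in 68 of 2484 thinned cells of replicate 1, so that these genes were not compared. Cells of a library share its depth and free RNA, and the correlations serve only to order the genes compared.

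Whether anti-PD-1 changes Spp1 was asked over libraries. The anti-PD-1 libraries, at 83.5, 67.9 and 181 CPM, lay on both sides of IgG at 142 CPM. The log2 fold change was -0.35 ± 0.52 (SE, 3 libraries against 1, adjusted p = 0.985, edgeR), and the difference was smaller than the spread between anti-PD-1 libraries. Of 13674 genes tested by edgeR 0 were called (0%). An unadjusted p under 0.05 was reached by 293, and DESeq2 called 5 genes. With 1 IgG library an exact permutation test cannot give a p below 0.25. The study's methods speak of 2 batches, and no label assigns a library to one, but replicates 1 and 2 share the stem of their titles and were the deeper pair.

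Without replicate 3 the log2 fold change was -0.89 ± 0.11 (adjusted p = 4.21e-15, edgeR), with 3360 of 13190 genes called (25.5%), and there treatment cannot be told apart from what sets replicates 1 and 2 apart. With replicates 1 and 2 against replicate 3 and IgG as a term, a grouping that no label gives, the sign turned, to 0.35. That value sets replicate 3 alone against IgG, 1 library against 1, with the spread taken from replicates 1 and 2 only. No call is therefore drawn from it. In cells with a nontargeting guide, Spp1 was at 99.2, 82.6 and 195 CPM with anti-PD-1 and 103 CPM with IgG, a log2 fold change of 0.30 ± 0.42 (adjusted p = 0.999, edgeR). With the 10 highest cells of each library left out, the levels were 41.5, 41.7, 139 and 114 CPM.

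**Figure D5:**
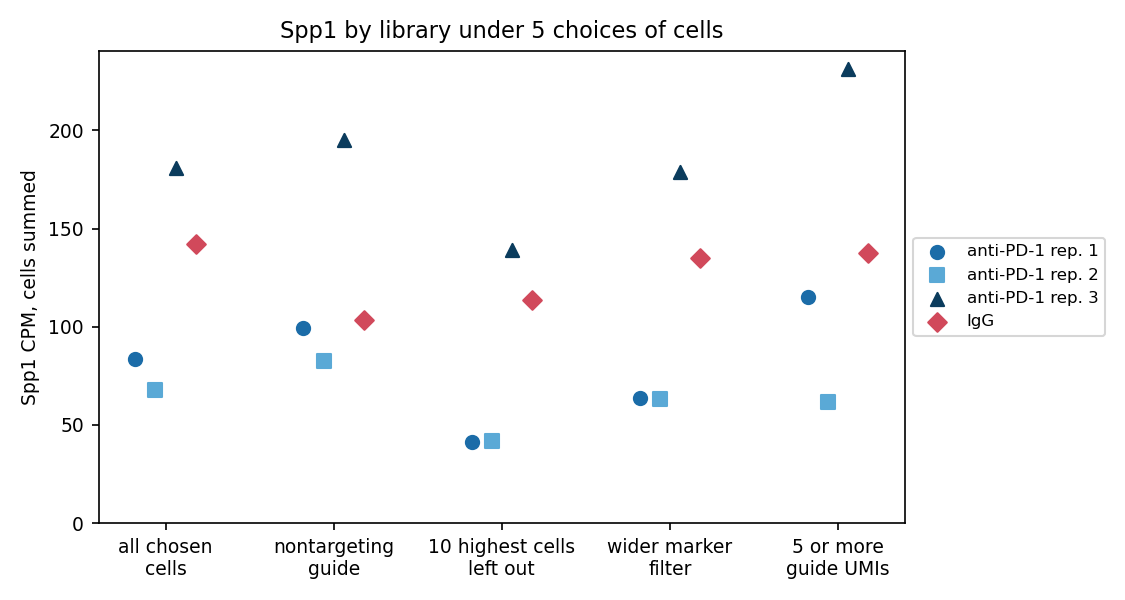
Spp1 CPM of each library for 5 choices of cells, 1 point per library. Anti-PD-1 replicate 3 is the highest library under every choice, and IgG is the second highest.

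Guides scattered widely around these means. Over nontargeting guides with at least 20 cells, the median Spp1 level was 12.1 CPM in replicate 1 (3 guides), 25.0 in replicate 2 (3 guides), 143 in replicate 3 (18 guides) and 63.5 in IgG (30 guides). In IgG they ran from 6.80 CPM (NonTargetingControlGuideForMouse_0023_gRNA23) to 683 CPM (NonTargetingControlGuideForMouse_0027_gRNA27), and 130 of the 132 Spp1 UMIs of the latter came from 1 cell. In replicate 3 they ran from 13.7 to 560 CPM. Targeting guides had medians of 11.3, 33.2, 87.1 and 90.2 CPM in replicates 1, 2, 3 and IgG. Spp1-rich cells were spread over 22 of 257, 28 of 260, 118 of 275 and 149 of 275 guides, with at most 2, 2, 4 and 5 on a guide. They made up 2.26%, 1.37%, 3.55% and 1.86% of nontargeting cells and 0.782%, 1.15%, 2.55% and 2.20% of targeted cells. The share of Spp1-positive cells per guide had a Pearson correlation of 0.020 between replicate 3 and IgG over 147 guides. For the other pairs of libraries, over 13 to 29 guides, it ran from -0.14 to 0.38, given as a description.

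Whether loss of a target changes Spp1 was tested for 83 targets against nontargeting cells, on sums per target and library. With p-values adjusted over the genes of each target, none was called for Spp1 by edgeR, and 6 had an unadjusted p under 0.05. With p-values adjusted for Spp1 over the 83 targets, a choice made after seeing the data, 1 was called, Upp1. Over these 6, 142 of 58626 gene and target pairs were called (0.242%). The median log2 fold change over targets was -0.46 with a median SE of 0.75, and 24 targets were above and 59 below nontargeting cells.

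The smallest p was that of Upp1, uridine phosphorylase, with Spp1 at 2238, 75.9, 270 and 21.8 CPM in replicates 1, 2, 3 and IgG, beside 99.2, 82.6, 195 and 103 CPM in nontargeting cells. The log2 fold change was 2.76 ± 0.62 (edgeR, adjusted p = 0.144 over genes and 0.00122 over targets), but 925 of the 934 Spp1 UMIs of replicate 1 came from 1 cell. Without replicate 1 the direction turned, to a log2 fold change of -0.10 ± 0.69, and no target was called by either adjustment. That cell carried the guide Upp1_gRNA2, found in 3 chosen cells of the library. The guides against Upp1 are shown because the cell that decides this value carried 1 of them.

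Upp1_gRNA1: cggctttatacatggcgtag
Upp1_gRNA2: tcccgcctgaagtgccaatg
Upp1_gRNA3: tgcaacatgatgccgatgga

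The next 4 targets by p were lower than nontargeting cells, none of them called by either adjustment. Nsd1, a histone H3 methyltransferase, had enough cells in replicate 3 and IgG only, with Spp1 at 12.3 and 29.1 CPM (log2 fold change -3.14 ± 1.07, adjusted p = 0.423, edgeR). Kmt2c, another histone methyltransferase, was at 10.8, 10.4, 17.4 and 65.3 CPM (-2.27 ± 0.88). Pik3cd, the catalytic p110 delta subunit of phosphoinositide 3-kinase, was at 0, 14.7, 24.7 and 69.6 CPM (-2.15 ± 0.84), and Pik3r1, a regulatory subunit, at 2.08, 0, 4.80 and 57.0 CPM (-3.01 ± 1.33). In each of the 4 the levels lay below those of nontargeting cells of the same library. This also held for targets with a larger p, such as Ahcyl1 and Ndufv3, and 59 of the 83 targets had a fold change below 0. Counts were small, with 1, 0, 2 and 22 Spp1 UMIs for Pik3r1. In IgG, 86 of the 104 Spp1 UMIs of Pik3cd, 39 of the 68 of Kmt2c and 15 of the 22 of Pik3r1 came from 1 cell each. The sixth target, Acsl5, a long-chain acyl-CoA synthetase, was named after its values were seen. Its Spp1 was at 25.0, 234, 1058 and 93.2 CPM (1.31 ± 0.63), above nontargeting cells in replicates 2 and 3 and below them in replicate 1 and IgG. In replicate 3, 519 of its 703 Spp1 UMIs came from 1 cell, and without that library the log2 fold change was 0.13 ± 0.90.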

How the data were processed

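Gene expression and guide libraries were measured in CD90.1+ OT-I T cells of 4 channels of the 10x Genomics 3' kit with feature barcoding. Per the labels and the study's methods, the authors made the deposited UMI counts with Cell Ranger 3.1.0 against mm10, and the deposited guide calls give the number of guides per barcode as counts. Its annotation release was not given in the sources used here, and Seurat and R 3.6.3 are further tools in the submitters' processing notes. Start and end of Spp1 are 1-based on GRCm38, and promoter sequences were taken from RefSeq (GRCm38.p6).

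Cells with 1 called guide were kept when log10 UMIs lay at most 3 median absolute deviations from that library's median, mitochondrial genes held at most 10% of UMIs, and Lyz2, C1qa, Krt8 and Krt19 were at 0. Cells were thinned to 3000 UMIs with a fixed seed for shares, groups by Spp1 and correlations. Sums of counts were tested with edgeR 4.0.16 (quasi-likelihood, filterByExpr, TMM, Benjamini-Hochberg at 0.05), after the scripts had been tested on simulated data. For the target fit, which pooled all targets with at least 10 cells per sum, the trended dispersion was estimated from every 10th gene by abundance, and p-values adjusted over genes were computed for targets with an unadjusted Spp1 p under 0.05. DESeq2 1.42.0 was an alternative. Tests ran in R 4.3.3 and all else in Python 3.11.15 (pandas 2.3.3, scipy 1.17.1, numpy 2.4.6, matplotlib 3.10.9).

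Named genes were the 15 largest rises and 10 largest falls among called genes with a mean log2 CPM above 5 and 1 direction in all 4 libraries, the 10 highest and 5 lowest correlations, the members of the gene lists (a member of the precursor list is not reported here), the 5 targets with the smallest p, and the highest and lowest nontargeting guides. Spp1, the lists and the tests were chosen with earlier results of these data known. Left-out cells and libraries and other thinning depths, filters and tools were tried as alternatives.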

Additional observations from a re-analysis of the deposited data

Results flagged for a closer look

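In cells high for cytokine and chemokine genes, the log2 ratio of Spp1 to the other cells was below 0 in all 3 anti-PD-1 libraries, between -0.99 and -0.17, and was 0.0448 in the IgG library. The difference between treatments was not tested, since there is 1 IgG library.

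Barcodes without a guide call, which enter none of the tests and none of the comparisons of states, also held Spp1. A UMI was seen in 10.1% of them in anti-PD-1 replicate 1, 10.7% in replicate 2, 12.2% in replicate 3 and 7.98% in IgG. The part of free RNA in these shares was not tested. Their Spp1 level was 77.9, 91.3, 141 and 114 CPM, beside 83.5, 67.9, 181 and 142 CPM in the chosen cells.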

How the results depend on the processing

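The treatment fold change of Spp1 kept its negative sign without the filter on low counts, with DESeq2, with both other marker filters, after thinning and in both settings chosen after seeing the data (10 highest cells or fibroblast-marked cells left out). With a minimum of 5 guide UMIs it was near 0, at -0.0073 ± 0.63. It reversed to 0.30 in nontargeting cells and to 0.35 with replicates 1 and 2 against replicate 3 and IgG as a term. The latter sets replicate 3 alone against IgG, 1 library against 1. No label assigns libraries to batches, and replicate 3 and IgG do not share a title stem. Leaving out an anti-PD-1 library gave values from -0.89 to -0.11, and the first of these, without replicate 3, was called. The cause was not tested.

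The 403 genes higher and 264 lower with Spp1 became 255 and 125 at 2000 thinned UMIs, 156 and 51 with DESeq2, and 20 and 0 without the library as a term, where 833 genes had an unadjusted p under 0.05. With 5 or more thinned UMIs, a setting chosen after seeing the data, they became 240 and 121. Leaving out a library gave 171 to 373 higher and 70 to 261 lower, the lowest without anti-PD-1 replicate 3 and the next, 196 and 116, without IgG. Of the 667 calls, 240 were shared without replicate 3 and 286 without IgG, and no shared call changed direction under any alternative run. Of 350 values of the 25 named genes under alternatives, 327 stayed on their side of the threshold and 23 lost the call, 20 of them without the library term. The 90th percentile of Spp1 selected the same cells as the main choice, so that 25 of the 350 values could not change.

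At 2000 thinned UMIs the shares of cells with Spp1 were 3.90%, 4.18%, 8.06% and 7.33% in replicates 1, 2, 3 and IgG, at 5000 they were 6.19%, 6.63%, 12.5% and 11.8%, and without thinning 11.5%, 12.3%, 19.4% and 13.0%. Of 84 state values, 3 moved by more than 1 SD: hypoxia to 1.66 and cytokines to -1.14 at the 90th percentile, and hypoxia to 0.99 with the wider marker filter. The Upp1 fold change of 2.76 turned to -0.10 without anti-PD-1 replicate 1. With guides as units, sums under 10 cells were left out, among them the 3 cells of the guide that held its highest cell. No target was called for Spp1 over the genes of a target in any of the fits run. Adjusted over targets, chosen after seeing the data, 1 was called (Upp1), 0 without anti-PD-1 replicate 1, 1 without each other library, and 5 with guides as units (Acsl5, Nsd1, Mogat2, Mgat2 and Cyp2a12), where guides of a target are no replicates. For targets, DESeq2 and the fit without a filter on low counts were not run. No paired analysis was possible because replicate numbers follow the sample order and there is 1 IgG library.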
